A study of Homo sapiens with 18 samples.

Results

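The constitutive proteasome subunits are the genes of the standard 26S proteasome, taken here as every symbol of the form PSMA, PSMB, PSMC or PSMD followed by a number, without PSMB8, PSMB9 and PSMB10. Of 36 such symbols, 33 were matched to a row among the 16472 gene rows of the table, and all 33 were tested. PSMA8, PSMB3 and PSMB11 matched no row and are not analysed here. Symbols were found for 15666 of the rows, so whether these genes have a row without a symbol is not known. RNA was sequenced from NIKS cells, normal immortalized keratinocytes of an established human line, which grow on irradiated J2/3T3 mouse fibroblast feeders. The cells were wild type (WT) or knockout (KO) for SP100, the gene of a nuclear body protein. They were left untreated (0 h) or given human interferon alpha 2a, a type I interferon, at 25 ng/mL for 12 or 48 h, with 3 biological replicates in each of the 6 groups. The column names give 1 line per genotype, Vec2 for the libraries titled WT and KO5 for those titled KO. SP100 status and line therefore cannot be told apart. No untreated library is labelled 12 or 48 h, so the effect of interferon and that of hours in culture cannot be told apart either. Values are RPKM, reads per kilobase of a gene after scaling to the reads of the library, and errors are SD with n = 3 unless stated. A gene was called higher or lower at a Benjamini-Hochberg adjusted p below 0.05 over all 13280 genes tested with limma, and its change is on the log2(RPKM + 1) scale.

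The proteasome degrades proteins that carry ubiquitin chains. Its barrel-shaped core is built of alpha rings, which gate the entry, and beta rings, in which PSMB5, PSMB6 and PSMB7 hold the proteolytic sites. A regulatory cap sits on the barrel: its base holds the PSMC ATPases, which unfold the substrate, and its lid removes ubiquitin. Interferons are known for inducing PSMB8, PSMB9 and PSMB10, which take the places of PSMB5, PSMB6 and PSMB7 and form the immunoproteasome used in antigen presentation. The other core and cap subunits are shared by both forms.

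SP100 RNA was at 27.9 to 31.9 RPKM in untreated WT and 14.2 to 16.0 RPKM in untreated KO libraries. It was called lower in KO at each time without overlap. SP100 RNA was still present and higher under interferon in KO, at 86.5 to 93.2 RPKM at 12 h and 57.4 to 62.4 RPKM at 48 h. The WT libraries held 151 to 172 RPKM at 12 h and 124 to 131 RPKM at 48 h. Which part of the gene was altered is not given in the sources used here. Relative depth, estimated from low values assumed to reflect the smallest read count, spanned 0.842 to 1.239 of the mean over the 18 libraries. Genes whose low values varied widely between libraries were left out of the estimate, so a wider spread of depth could have been missed. Pairs of replicates correlated across genes with a Pearson r of 0.9853 to 0.9894. All 6 keratinocyte markers had rows (KRT5, KRT14, KRT6A, TP63, CDH1 and ITGA6), with KRT5 at 6494 RPKM or more in every library. Of 8 fibroblast markers only COL1A1 and FAP had rows, and their summed level was 5.5 to 8.84 RPKM. COL1A1 was higher and FAP lower at 12 h in KO (0.53 and -0.33), the FAP call being lost with median-of-ratios scaling (-0.24), and the sources used here do not say what was done with mouse reads. The part of feeder cells in the results was not tested.

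In untreated WT cells the 33 genes were expressed within a 10.05-fold range of RPKM, from PSMD5 at 23.9 ± 1.22 RPKM to PSMB1 at 239.9 ± 5.59 RPKM. RPKM is a level per length of gene, and genes are set side by side on it here. Of the 33 members 10 have named pseudogenes, and how shared reads were counted is not given, so the order of genes is approximate. The 13 core genes had a median of 159 RPKM and lay between PSMB2 (75.1 ± 0.548) and PSMB1, a 3.19-fold range. The 20 cap genes had a median of 90.5 RPKM and reached up to PSMD2 at 215 ± 10.4 RPKM. They include the assembly chaperone genes PSMD5, PSMD9 and PSMD10, without which the median of the 17 others was 98.7 RPKM. PSMD5 and PSMD10, whose products are assembly chaperones that leave the finished particle, were the lowest of all 33, with PSMD10 at 33.4 ± 1.26 RPKM. PSMD9, also an assembly chaperone gene, was at 68.8 ± 1.87 RPKM, below the median of the cap genes and above the subunit gene PSMC4 (54.1 ± 1.02). PSMB1 and PSMA7 (228 ± 2.67) were the highest of all 33 in untreated WT, followed by PSMD2. Replicates were close: the CV of a gene within a group had a median of 3.42% over 198 values and a highest value of 13.7%, for PSMD9.

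At 12 h of interferon most constitutive subunit genes were higher. Of the 33 members 21 rose and 1 fell in WT, where 15.1% of all genes tested rose and 29.8% fell. In KO, 18 rose and 3 fell, where 16% of all genes rose and 32.8% fell. The median change of the members was 0.17 in WT and 0.13 in KO, beside -0.086 and -0.095 over all genes tested. The largest rises were those of PSMA6, PSMA3 and PSMC4, and PSMD10 fell in both genotypes. By 48 h most of the change was gone. In WT 4 members were higher and 0 lower than untreated, where 6.52% of all genes were higher and 6.3% lower. An unadjusted p under 0.05 in limma was found for 8 members, and the share of all genes at that limit was not counted.

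The summed RPKM of the 33 genes shows the same course. Untreated WT cells had a sum of 3934 ± 9.47, which was 4496 ± 107 after 12 h and 4018 ± 32.6 after 48 h. The KO sums were 4096 ± 72.4, 4566 ± 96.9 and 4014 ± 84.7. As a share of all RPKM in the table this was 0.555% ± 0.00315, 0.662% ± 0.0181 and 0.590% ± 0.00668 in WT. Every 12 h library was above every untreated and 48 h library of its genotype. RPKM is a share of the library, so RNA per cell was not measured, and in such bulk samples fewer cells of a type and less RNA per cell cannot be told apart.

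**Figure D1:**
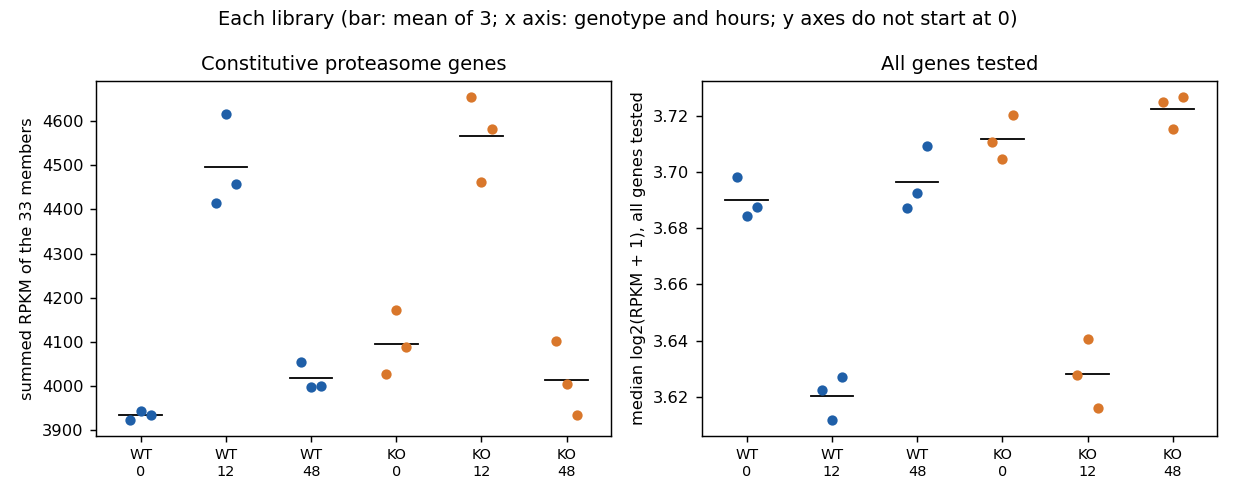
Summed RPKM of the 33 members (left) and the median log2(RPKM + 1) of the 13280 genes tested (right) in each library, as points with the mean of 3 as a bar, by genotype and hours of interferon (WT blue, KO orange). The members' sum was highest at 12 h in both genotypes, and in the same libraries the median of all genes was lowest. The axes do not start at 0.

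The level of all genes moved in the opposite direction at 12 h, as the plot of library levels shows. Median-of-ratios scaling, which sets the libraries' typical gene equal, raised the members' changes at 12 h. With it 27 members rose and 0 fell in WT, where 21.8% of all genes rose and 20.5% fell, and the members' median was 0.27. In KO 26 rose and 1 fell, where 23.7% of all genes rose and 22.9% fell, with a median of 0.24. Higher calls made up 33.6% of all calls without and 51.6% with the scaling in WT, and 32.7% and 50.9% in KO. Each of the 21 and 18 rises was also called with the scaling; of the falls, that of PSMD10 in KO was.

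Members that rose in both genotypes at 12 h numbered 18, and PSMD10 fell in both. PSMB5, PSMD6 and PSMD14 were called in WT and not in KO; WT changes of 0.16, 0.16 and 0.18 stood beside KO changes of 0.080, 0.12 and 0.13. With median-of-ratios scaling these 3 were called in both. PSMB1 and PSMB6 were called lower in KO and not in WT. None of these 5 had a called interaction between genotype and interferon. The sign was the same in WT and KO for 32 of the 33, with PSMA7 (0.084 and -0.029) as the exception; with median-of-ratios scaling PSMA7 was above 0 in both (0.18 and 0.079) while PSMB1 and PSMB6 differed in sign. WT and KO changes at 12 h, which share no library, correlated over the 33 members with r = 0.942 (Pearson) and rho = 0.933 (Spearman). The points are genes measured in the same libraries, not replicates. Neither the agreement in sign nor the correlation was computed over all genes tested, so neither is shown to be particular to the members. The level of a member in untreated KO cells and its 12 h change in WT had an r of 0.032.

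**Figure D2:**
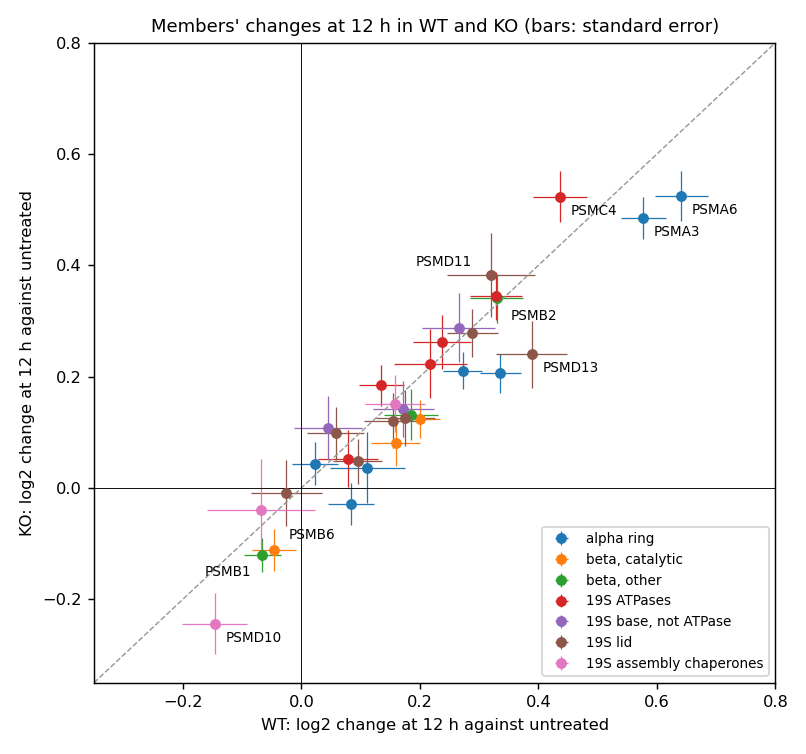
Change of each member at 12 h against untreated cells in WT (x axis) and KO (y axis), log2(RPKM + 1) scale, with standard errors as bars and colours for the role in the particle; the dashed line marks equal change. PSMA6, PSMA3 and PSMC4 lie at the upper right, PSMD10 at the lower left, and the others spread along the line.

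Promoter windows of 4 members that rose at 12 h are printed here because they span the largest rise and the motifs searched. They run from 250 bases before to 50 bases after the annotated start, come from RefSeq on GRCh38.p14, and were available for 28 of the 33 members. PSMA6 (the largest rise) is at chr14:35292067-35292366, plus strand, PSMA4 at chr15:78540155-78540454, plus strand, PSMB4 at chr1:151399323-151399622, plus strand and PSMC4 at chr19:39970915-39971214, plus strand. Capitals mark motif matches, and the window of PSMA6 holds none.
PSMA6: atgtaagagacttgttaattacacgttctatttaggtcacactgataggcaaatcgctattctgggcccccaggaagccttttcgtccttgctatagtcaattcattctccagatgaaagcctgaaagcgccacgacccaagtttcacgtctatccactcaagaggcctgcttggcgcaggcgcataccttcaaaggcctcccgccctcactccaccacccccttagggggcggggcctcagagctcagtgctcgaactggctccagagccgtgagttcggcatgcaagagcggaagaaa
PSMA4: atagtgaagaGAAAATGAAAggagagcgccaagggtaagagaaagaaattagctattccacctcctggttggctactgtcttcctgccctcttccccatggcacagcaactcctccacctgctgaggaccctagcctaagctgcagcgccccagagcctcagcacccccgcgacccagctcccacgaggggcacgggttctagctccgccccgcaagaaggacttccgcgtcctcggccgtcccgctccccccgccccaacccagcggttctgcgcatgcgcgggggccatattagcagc
PSMB4: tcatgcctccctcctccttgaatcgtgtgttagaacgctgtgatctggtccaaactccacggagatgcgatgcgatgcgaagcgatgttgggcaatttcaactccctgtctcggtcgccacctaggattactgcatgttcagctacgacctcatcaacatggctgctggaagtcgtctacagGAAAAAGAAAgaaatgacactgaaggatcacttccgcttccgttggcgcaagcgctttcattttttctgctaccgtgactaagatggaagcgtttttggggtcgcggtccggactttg
PSMC4: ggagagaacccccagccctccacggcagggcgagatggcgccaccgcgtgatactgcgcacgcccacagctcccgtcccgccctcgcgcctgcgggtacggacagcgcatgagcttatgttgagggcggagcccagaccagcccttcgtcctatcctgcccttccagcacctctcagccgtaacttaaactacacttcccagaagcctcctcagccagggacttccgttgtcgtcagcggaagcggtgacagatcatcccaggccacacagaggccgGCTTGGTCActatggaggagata

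The capitals in PSMA4 (bases 11 to 20 of the window) and PSMB4 (bases 183 to 192) match GAAANNGAAA, the core of the interferon-stimulated response element. Those in PSMC4 (bases 278 to 286) match TGACNNNGC, the core of the antioxidant response element, on the opposite strand. Both motifs were searched on both strands, no match of one overlapped a match of the other in a member, and a gene counts if any of its windows holds a match. GAAANNGAAA was found in 2 of the 28 members (7.14%) and in 4.38% of 27305 genes, and in PSMB8 and PSMB10 of the 3 immunosubunits. TGACNNNGC was found in 8 members (28.6%) and in 16.1% of all genes. The 8 are PSMA4, PSMC4, PSMC5, PSMD1, PSMD3, PSMD5, PSMD9 and PSMD12; in PSMA4 it lies in another window, at bases 125 to 133 of chr15:78540536-78540835. Of these 8, 6 rose at 12 h in WT, and of the 20 members without a match 14 rose. Both members with GAAANNGAAA rose, as did 18 of the 26 without it. A match describes letters only, and the motif of the interferon-stimulated response element was added after the values were seen.

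The alpha ring forms the entrance of the core, and it held the largest changes. Of its 7 measured genes 4 rose at 12 h in each genotype (PSMA3, PSMA4, PSMA5 and PSMA6) and 0 fell. PSMA6 (ENSG00000100902) was at 169.5, 163 and 153 RPKM untreated, 244, 267 and 248 RPKM at 12 h and 198, 203 and 199 RPKM at 48 h in WT. The KO libraries held 173, 184 and 173 RPKM untreated, 265, 244 and 253 RPKM at 12 h and 203, 192 and 199 RPKM at 48 h. Every 12 h library was above every other library of its genotype, and 48 h libraries lay between 12 h and untreated ones. The mean rose 1.56-fold at 12 h in WT and 1.44-fold in KO, log2 changes of 0.64 (SE 0.045, limma adjusted p 1.5e-08) and 0.53 (adjusted p 1.44e-07). From 12 to 48 h it fell, with changes of -0.34 in WT and -0.36 in KO. PSMA6 has 4 named pseudogenes and overlaps a coding gene on its own strand in GENCODE 29, and how shared reads were counted is not given in the sources used here.

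PSMA3 (ENSG00000100567), another alpha ring subunit, had nearly the same course. In WT it was at 129, 126 and 128 RPKM untreated, 189, 198 and 185 RPKM at 12 h and 154, 149.9 and 159 RPKM at 48 h. In KO the values were 138, 145 and 134 RPKM untreated, 199, 188 and 196 RPKM at 12 h and 156, 149 and 154 RPKM at 48 h. The groups did not overlap in either genotype. Its changes at 12 h were 0.58 in WT (adjusted p 5.89e-09) and 0.48 in KO (adjusted p 4.57e-08).

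PSMA4 (ENSG00000041357) and PSMA5 (ENSG00000143106) rose less. PSMA4 was at 160.3, 158 and 158 RPKM untreated, 194, 209 and 199 RPKM at 12 h and 169, 178 and 171 RPKM at 48 h in WT, and at 173, 176 and 174 RPKM untreated, 207, 196 and 202 RPKM at 12 h and 179, 169 and 169.6 RPKM at 48 h in KO. PSMA5 was at 119.8, 121 and 119 RPKM untreated, 143, 147 and 145 RPKM at 12 h and 123, 127 and 129 RPKM at 48 h in WT, and at 129.8, 136 and 129 RPKM untreated, 156, 147 and 155 RPKM at 12 h and 129, 127 and 123 RPKM at 48 h in KO. In both genes the untreated KO libraries stood above the untreated WT libraries, while at 12 h the genotypes overlapped. Their changes at 12 h were 0.34 and 0.27 in WT (adjusted p 1.62e-06 and 7.84e-06) and 0.21 and 0.21 in KO (adjusted p 0.000163 and 7.68e-05). PSMA1, PSMA2 and PSMA7, the rest of the ring, did not pass the test at 12 h in either genotype, with changes of 0.023, 0.11 and 0.084 in WT. With median-of-ratios scaling these 3 were called higher in WT, at 0.12, 0.21 and 0.18.

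The catalytic beta subunits are those that immunosubunits replace. Their median change at 12 h was 0.16 in WT and 0.080 in KO, beside 0.17 and 0.13 over all members. PSMB5 (ENSG00000100804), with the chymotrypsin-like site, was at 133, 139 and 131 RPKM untreated, 150.2, 149 and 152 RPKM at 12 h and 141, 137 and 131 RPKM at 48 h in WT. In KO cells the level was 144, 145 and 139 RPKM untreated, 152, 146 and 154 RPKM at 12 h and 147, 139 and 131 RPKM at 48 h. It rose by 0.16 at 12 h in WT (SE 0.041, adjusted p 0.00509), and in KO, where the change was 0.080, it did not pass (adjusted p 0.121). PSMB7 (ENSG00000136930), with the trypsin-like site, was at 164, 163 and 157 RPKM untreated, 182, 192 and 183 RPKM at 12 h and 176, 177 and 176 RPKM at 48 h in WT. KO values were 173, 165 and 166 RPKM untreated, 179, 181 and 188 RPKM at 12 h and 177, 168 and 167 RPKM at 48 h. It rose in both, by 0.20 (adjusted p 0.000202) and 0.12 (adjusted p 0.00709). The 12 h libraries of PSMB5 and PSMB7 stood above the untreated ones of the same genotype.

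PSMB6 (ENSG00000142507), with the caspase-like site, did not rise. It was at 154, 152 and 147 RPKM untreated, 141, 152 and 146 RPKM at 12 h and 139, 138 and 141 RPKM at 48 h in WT, and at 154, 151 and 159 RPKM untreated, 139, 145 and 145 RPKM at 12 h and 146, 143 and 134 RPKM at 48 h in KO. The WT groups at 0 and 12 h overlapped, and in KO the 12 h libraries were below the untreated ones. Its change at 12 h was -0.046 in WT (adjusted p 0.347) and -0.11 in KO (adjusted p 0.023), and with median-of-ratios scaling it was 0.049 and -0.0042, not called in either. The KO call was also lost without KO replicate 3 at 0 h or KO replicate 1 at 12 h (-0.090 and -0.092, adjusted p 0.0939 and 0.0912).

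Their inducible counterparts changed far more. At 12 h in WT PSMB8 rose by 2.30, PSMB9 by 3.38 and PSMB10 by 0.85 (limma adjusted p 6.29e-13, 8.47e-15 and 5.07e-06). The ratio of PSMB8 to PSMB5 in RPKM went from 0.144 ± 0.0231 in untreated WT to 0.656 ± 0.0245 at 12 h and 0.739 ± 0.0225 at 48 h. PSMB9 over PSMB6 went from 0.0406 ± 0.00482 to 0.498 ± 0.0155 and 0.409 ± 0.0375. PSMB10 over PSMB7 was 0.159 ± 0.0223, 0.253 ± 0.0262 and 0.152 ± 0.00669, so that its 48 h mean lay within 1 SD of the untreated mean. The constitutive gene thus stayed the higher of each pair in every library.

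In KO the ratios were lower for the PSMB8 and PSMB9 pairs. PSMB8 over PSMB5 was 0.109 ± 0.00836 untreated, 0.547 ± 0.0151 at 12 h and 0.604 ± 0.0224 at 48 h. PSMB9 over PSMB6 was 0.0276 ± 0.00325, 0.415 ± 0.0147 and 0.311 ± 0.0209. For both pairs the KO libraries lay below the WT libraries of the same time at all 3 times. PSMB10 over PSMB7 was 0.151 ± 0.0269, 0.225 ± 0.0111 and 0.168 ± 0.0150, and overlapped WT. The ratio is a description, and its difference between genotypes was not tested. Of the numerators, PSMB9 was called lower in KO at 0 h (-0.44, adjusted p 0.00537) and 48 h (-0.37, adjusted p 0.0166), and PSMB8 at 0 h (-0.29, adjusted p 0.0417). The PSMB8 call was lost in 15 of 25 alternatives, among them each left-out library of the 2 groups except WT replicate 2 and KO replicate 1 (-0.20 to -0.29, adjusted p 0.105 to 0.166). The PSMB9 call at 0 h was lost with the libraries of the comparison alone (adjusted p 0.12). Its 48 h call was lost without KO replicate 1 or 3 or WT replicate 2 at 48 h (-0.31 to -0.36, adjusted p 0.0605 to 0.0935).

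**Figure D3:**
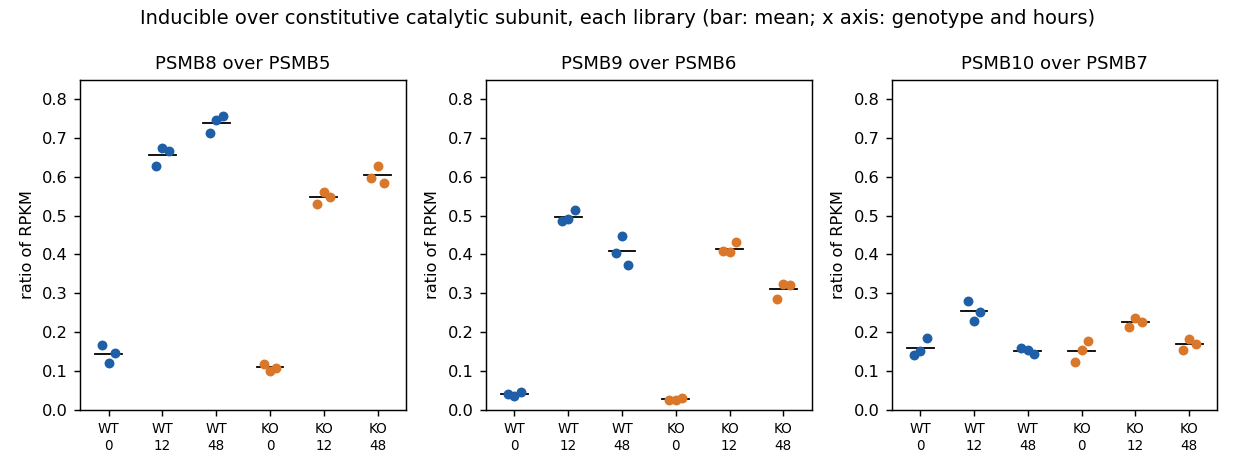
RPKM of each inducible catalytic subunit divided by that of its constitutive counterpart, per library (points) with the mean of 3 (bar), by genotype and hours of interferon; WT blue, KO orange. Every ratio is below 1. PSMB8 over PSMB5 is higher at 48 h than at 12 h, without overlap in either genotype, and PSMB10 over PSMB7 is back near the untreated level.

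The other beta subunits have no proteolytic site. PSMB2 (ENSG00000126067) was at 74.5, 75.3 and 75.6 RPKM untreated, 92.8, 100.1 and 91.3 RPKM at 12 h and 80.4, 77.6 and 73.9 RPKM at 48 h in WT. Values in KO were 76.1, 79.4 and 77.6 RPKM untreated, 99.1, 94.5 and 102 RPKM at 12 h and 80.5, 75.8 and 74.9 RPKM at 48 h. The 12 h libraries stood apart, and by 48 h the values overlapped with the untreated ones. PSMB2 rose by 0.33 in WT (SE 0.044, adjusted p 2.01e-05) and 0.34 in KO (adjusted p 1.14e-05). PSMB4 rose by 0.19 in WT and 0.13 in KO, a KO call that was lost without KO replicate 1 or 2 at 0 h or KO replicate 2 or 3 at 12 h (0.11 to 0.13, adjusted p 0.0529 to 0.102).

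PSMB1 went the other way. It was at 233, 243 and 243 RPKM untreated, 228, 232 and 228 RPKM at 12 h and 226, 229 and 236 RPKM at 48 h in WT, and at 247, 249 and 252 RPKM untreated, 236, 222 and 230.2 RPKM at 12 h and 231, 219 and 226 RPKM at 48 h in KO. At 12 h its change was -0.066 in WT (adjusted p 0.0955) and -0.12 in KO (adjusted p 0.00434); with median-of-ratios scaling these became 0.030 and -0.012, neither called. At 48 h in KO it was lower than untreated under both scalings, at -0.15 (adjusted p 0.0039) and -0.13.

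The ATPases of the cap base form a ring that threads the substrate into the core. Of 6 genes, 5 rose at 12 h in each genotype and 0 fell. PSMC4 (ENSG00000013275) had the largest change and was at 52.9, 54.6 and 54.8 RPKM untreated, 72.2, 75.0 and 73.5 RPKM at 12 h and 61.9, 58.0 and 58.1 RPKM at 48 h in WT. Its KO libraries had 49.8, 53.3 and 51.3 RPKM untreated, 71.5, 73.5 and 78.3 RPKM at 12 h and 58.9, 59.9 and 53.9 RPKM at 48 h. The 12 h libraries were above all others of their genotype, with changes of 0.44 in WT (SE 0.046, adjusted p 1.74e-06) and 0.52 in KO (adjusted p 1.95e-07). PSMC2 rose by 0.33 and 0.34 in WT and KO, PSMC1 by 0.24 and 0.26, PSMC3 by 0.22 and 0.22 and PSMC5 by 0.13 and 0.18. The WT call of PSMC5 was lost without WT replicate 3 at 12 h (0.10, adjusted p 0.0511). PSMC6 was not called (0.079 and 0.053), and with median-of-ratios scaling it was called higher in both (0.17 and 0.16). PSMC1 has 13 named pseudogenes, the most of any member.

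The other base subunits are scaffolds and a ubiquitin receptor. PSMD2 (ENSG00000175166), the scaffold that docks shuttle factors, was at 206, 226 and 213 RPKM untreated, 255, 278 and 244 RPKM at 12 h and 222, 187 and 192 RPKM at 48 h in WT. The KO libraries held 204, 211 and 204 RPKM untreated, 264, 242 and 249.8 RPKM at 12 h and 193, 207 and 194 RPKM at 48 h. It rose by 0.27 in WT (adjusted p 0.00244) and 0.29 in KO (adjusted p 0.00116) and then fell, with changes of -0.37 in WT and -0.35 in KO from 12 to 48 h. Against untreated cells the 48 h values were not called. PSMD1, the other scaffold, rose by 0.17 in WT and 0.14 in KO. Its WT call was lost without WT replicate 3 at 12 h (0.12, adjusted p 0.0740), and its KO call without KO replicate 1 or 3 at either 0 or 12 h (0.12 to 0.14, adjusted p 0.0650 to 0.103). The ubiquitin receptor PSMD4 was not called at 12 h (0.046 and 0.11).

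Of the 8 lid genes 5 rose at 12 h in WT and 3 in KO, and 0 fell. PSMD13 (ENSG00000185627), a structural lid subunit, was at 111, 111 and 101 RPKM untreated, 149, 136 and 139 RPKM at 12 h and 118, 117 and 111 RPKM at 48 h in WT. In KO cells the level was 105, 121 and 122 RPKM untreated, 139, 133 and 139 RPKM at 12 h and 114, 124 and 111 RPKM at 48 h. All 12 h libraries were above the untreated ones, with changes of 0.39 in WT (SE 0.060, adjusted p 7.83e-05) and 0.24 in KO (adjusted p 0.00348). PSMD12 (ENSG00000197170), also structural, was at 60.1, 58.3 and 62.6 RPKM untreated, 72.4, 77.1 and 72.2 RPKM at 12 h and 61.1, 59.3 and 57.0 RPKM at 48 h in WT. KO values were 63.7, 66.4 and 66.0 RPKM untreated, 84.2, 76.6 and 78.0 RPKM at 12 h and 61.1, 59.8 and 62.4 RPKM at 48 h. It rose by 0.29 and 0.28 and had the largest fall of the lid from 12 to 48 h in WT, -0.32.

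PSMD11, which helps hold the lid against the core, rose by 0.32 in WT and 0.38 in KO. PSMD14, the deubiquitinase of the lid, rose in WT by 0.18, a call lost without WT replicate 2 at 12 h (0.13, adjusted p 0.0582). PSMD6 rose in WT by 0.16, a call lost without WT replicate 2 at 0 h or 12 h (0.11 and 0.13, adjusted p 0.10 and 0.0742). PSMD3, PSMD7 and PSMD8 were not called in either genotype, at 0.095, 0.058 and -0.025 in WT. With median-of-ratios scaling PSMD3 and PSMD7 were called higher in both genotypes.

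The PSMD genes that encode assembly chaperones of the base did not move together. PSMD10 (ENSG00000101843), gankyrin, which binds PSMC4 during assembly, was at 34.0, 31.9 and 34.2 RPKM untreated, 27.8, 32.8 and 29.8 RPKM at 12 h and 36.5, 35.3 and 36.2 RPKM at 48 h in WT. Values in KO were 35.3, 35.9 and 36.8 RPKM untreated, 30.8, 30.3 and 29.5 RPKM at 12 h and 36.6, 33.6 and 37.7 RPKM at 48 h. In KO the 12 h libraries were below all others, and in WT 1 library at 12 h overlapped the untreated ones. Its change at 12 h was -0.15 in WT (adjusted p 0.041) and -0.24 in KO (adjusted p 0.00171), and with median-of-ratios scaling -0.053, not called, and -0.14, called. The WT call was also lost without WT replicate 1 or 3 at 0 h or WT replicate 1 or 3 at 12 h (-0.091 to -0.14, adjusted p 0.0933 to 0.205). From 12 to 48 h PSMD10 was the only member to rise in either genotype, by 0.25 in WT and 0.24 in KO.

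PSMD5 (ENSG00000095261), which assists PSMC2, was at 24.5, 24.6 and 22.4 RPKM untreated, 27.4, 27.0 and 25.7 RPKM at 12 h and 25.6, 23.1 and 26.1 RPKM at 48 h in WT. Its KO libraries had 26.1, 24.4 and 24.4 RPKM untreated, 28.6, 27.5 and 27.3 RPKM at 12 h and 25.9, 26.4 and 26.1 RPKM at 48 h. It rose by 0.16 in WT and 0.15 in KO. The WT call was lost without WT replicate 3 at 0 h or WT replicate 1 or 2 at 12 h (0.12 to 0.15, adjusted p 0.0553 to 0.102), and the KO call without KO replicate 2 or 3 at 0 h or KO replicate 1 at 12 h (0.13 to 0.14, adjusted p 0.0685 to 0.0751). PSMD9 was not called (-0.068 and -0.039); it had the highest CV within a group.

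**Figure D4:**
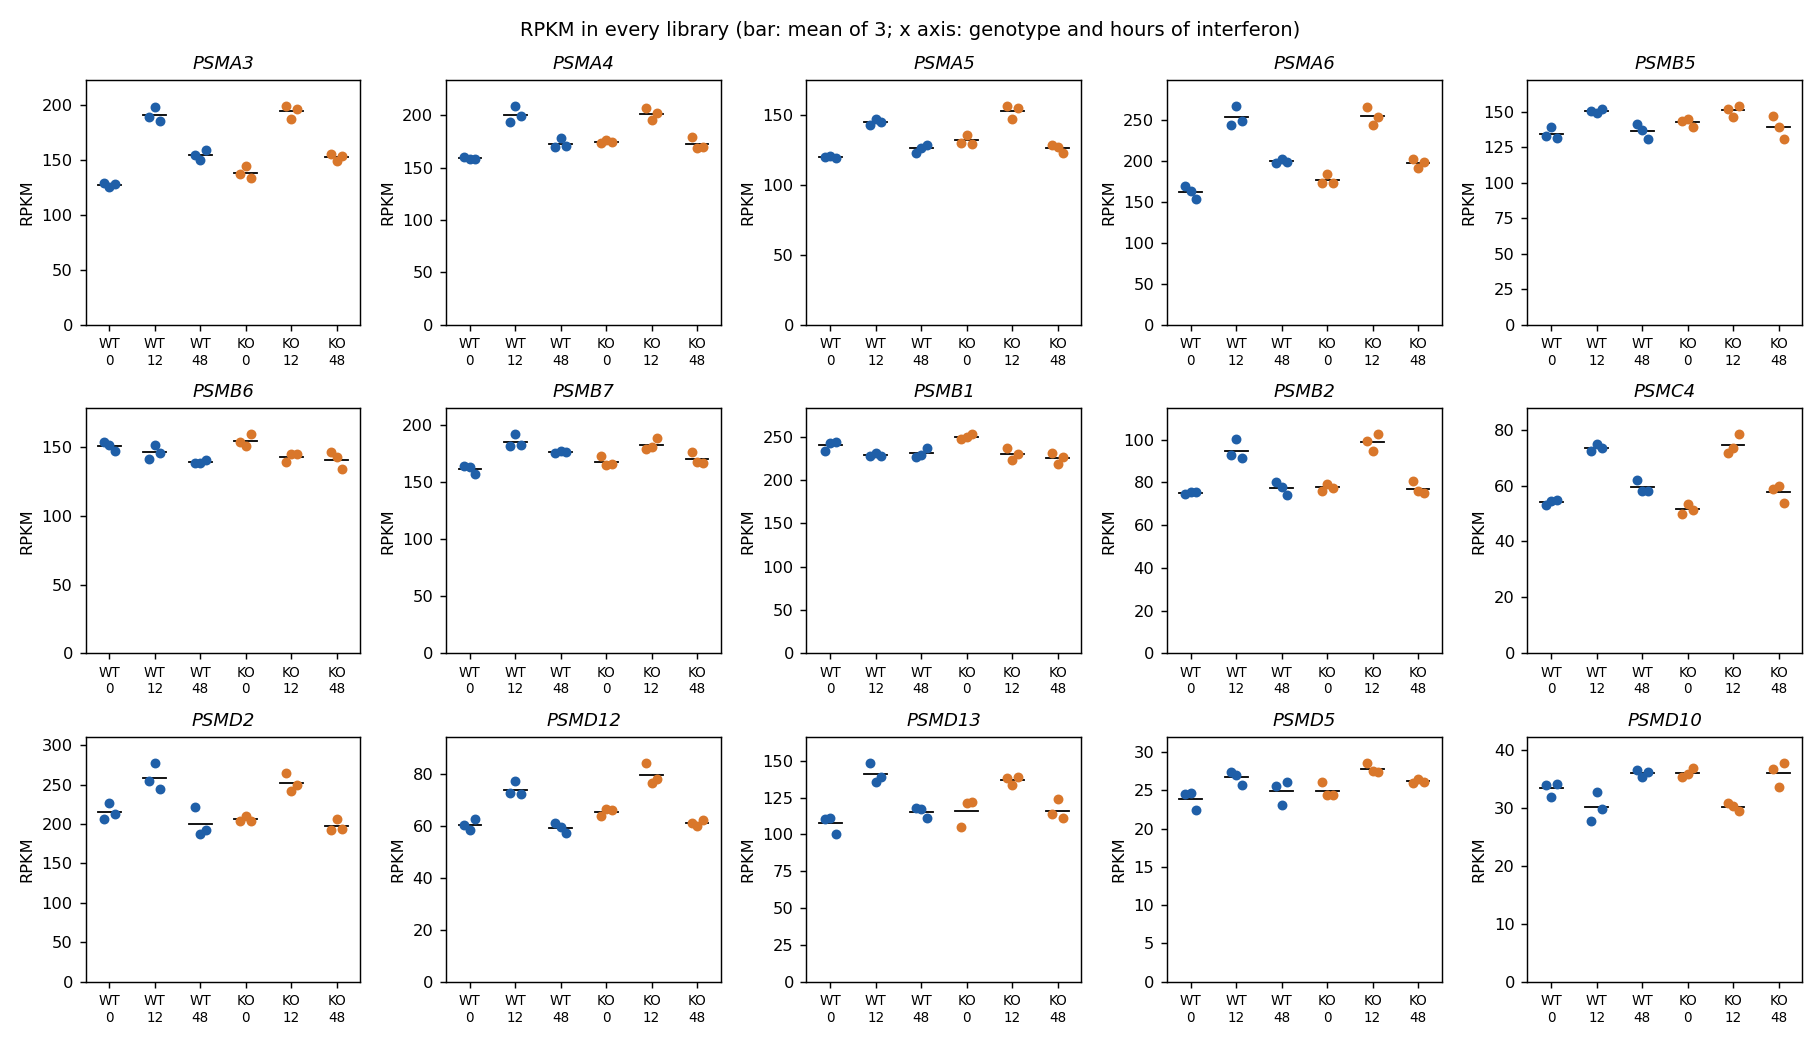
RPKM of 15 members in each of the 18 libraries (points) with the mean of 3 (bar), by genotype and hours of interferon; WT blue, KO orange, every y axis from 0. PSMA6, PSMA3, PSMB2 and PSMC4 peak at 12 h in both genotypes, PSMB6 and PSMB1 do not (with median-of-ratios scaling their WT changes turn to 0.049 and 0.030), and PSMD10 dips at 12 h.

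From 12 to 48 h the members mostly fell. In WT 16 members fell and 1 rose, where 11.3% of all genes tested fell and 24.6% rose, and the members' median was -0.11 beside 0.074 over all genes. In KO 21 fell and 1 rose, where 14% of all genes fell and 27.7% rose, with medians of -0.16 and 0.079. With median-of-ratios scaling 26 fell and 1 rose in WT (18.2% and 16.1% of all genes) and 30 fell and 1 rose in KO (21.1% and 19.1%). The scaling moved the share of higher calls among all calls to 46.9% (WT, 68.5% without it) and 47.5% (KO, 66.4%). The largest falls in WT were PSMD2 (-0.37), PSMA6 (-0.34), PSMD12 (-0.32), PSMC4 (-0.31) and PSMA3 (-0.30). In KO they were PSMD11 (-0.38), PSMD12 (-0.38), PSMC2 (-0.37), PSMC4 (-0.37) and PSMA6 (-0.36). These comparisons share their 12 h libraries with those against untreated cells and are not independent of them.

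At 48 h few members still differed from untreated cells. In WT PSMA6 (0.30, adjusted p 0.000226) and PSMA3 (0.27, adjusted p 0.000103) were higher, as were PSMB7 (0.13, adjusted p 0.0196) and PSMA4 (0.12, adjusted p 0.032). The PSMB7 call was lost without WT replicate 3 at 0 h or WT replicate 2 or 3 at 48 h (0.11 to 0.13, adjusted p 0.0516 to 0.0891). The PSMA4 call was lost without any 1 of the WT libraries at 0 h or WT replicate 2 or 3 at 48 h (0.098 to 0.13, adjusted p 0.0569 to 0.131). Leaving out WT replicate 3 at 0 h, or WT replicate 2 or 3 at 48 h, left 2 members called.

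In KO at 48 h 3 members were higher and 3 lower than untreated, where 5.9% of all genes were higher and 7.42% lower. PSMA6 (0.16), PSMC4 (0.16) and PSMA3 (0.14) were higher, and PSMB1 (-0.15), PSMC5 (-0.14) and PSMB6 (-0.13) lower. Except that of PSMB1, each call was lost when 1 library was left out: PSMA6 and PSMA3 without KO replicate 1 or 3 at 0 h or at 48 h (0.12 to 0.16), PSMC4 without KO replicate 1 or 3 at 0 h or KO replicate 1 or 2 at 48 h (0.13 to 0.16), PSMC5 without KO replicate 1 or 2 at 0 h or KO replicate 2 at 48 h (-0.13 to -0.14) and PSMB6 without KO replicate 1 or 3 at 0 h or KO replicate 2 or 3 at 48 h (-0.097 to -0.14). Counts fell to 2 without KO replicate 1 or 3 at 0 h and to 3 without any 1 KO library at 48 h.

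**Figure D5:**
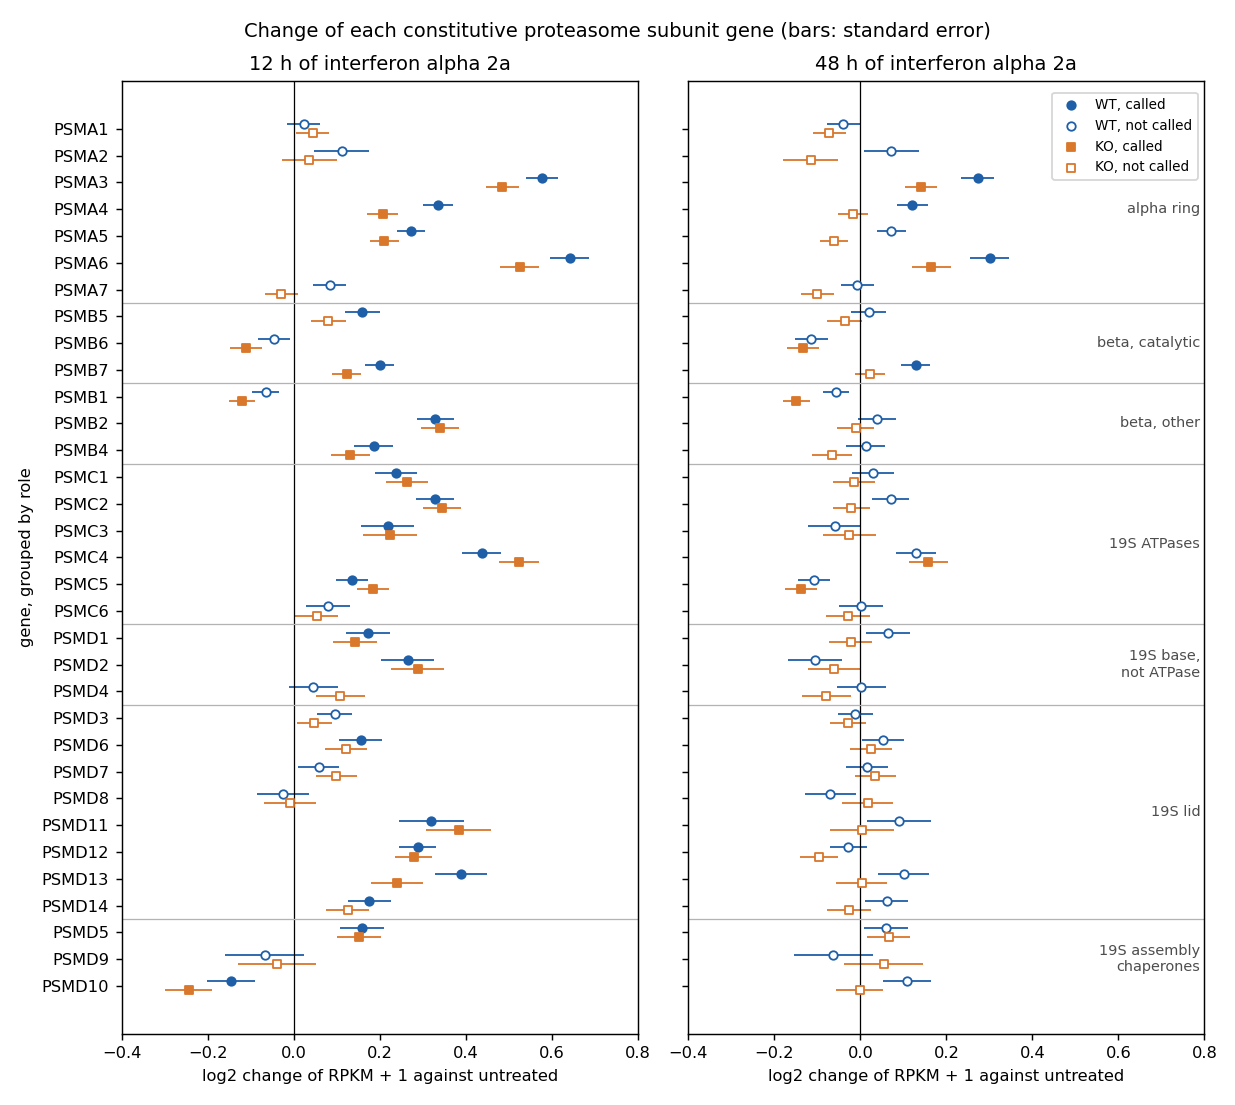
Change of each of the 33 members against untreated cells at 12 h (left) and 48 h (right), log2(RPKM + 1) scale, with standard errors as bars, grouped by role; circles are WT and squares KO, filled where called. At 12 h most points lie right of 0, and at 48 h most lie near it. PSMA3, PSMA6 and PSMC4 lie to the right at 48 h in both genotypes, PSMC4 being called in KO only.

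Knockout and WT cells were compared at each time. In untreated cells 2 of the 33 members were called, both higher in KO, where 4.89% of all genes were called in either direction. They were PSMA5 (0.14, SE 0.033, adjusted p 0.0256) and PSMA4 (0.14, SE 0.035, adjusted p 0.0345), in which all 3 KO libraries stood above all 3 WT libraries. The median difference of the members was 0.065, beside 0.020 over all genes tested, and 26 of the 33 were above 0. With median-of-ratios scaling these medians were 0.045 and 0.0011. The share of all genes above 0 was not counted. Both calls were lost with median-of-ratios scaling (0.11 and 0.12), which also moved the share of higher calls over all genes from 57.7% to 46.9%. PSMA5 lost its call without any 1 WT library at 0 h or without KO replicate 1 or 2 at 0 h (0.11 to 0.15, adjusted p 0.0519 to 0.125), and PSMA4 without any 1 of these 6 libraries (0.13 to 0.14, adjusted p 0.0667 to 0.118).

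At 12 h 0 members were called between genotypes by limma, where 3.62% of all genes were called. Unadjusted limma p was under 0.05 for 6 members, and the share of all genes at that limit was not counted. The largest difference was that of PSMD11, 0.27 (SE 0.075, adjusted p 0.059), with 77.3, 93.4 and 78.6 RPKM in WT and 100.0, 100.1 and 99.9 RPKM in KO, which did not overlap. With WT replicate 1 or 2 at 0 h, or WT replicate 2 at 12 h, left out, 1 member was called. At 48 h 0 were called by limma, where 4.19% of all genes were called, and 0 had an unadjusted p under 0.05. The differences at 48 h lay between -0.098 and 0.12, with standard errors of at most 0.091.

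A difference of the interferon response between WT and KO was tested as an interaction, the change in KO minus the change in WT. At 12 h limma called 0 members, where 0.0753% of all genes were called, and 1 had an unadjusted p under 0.05 (PSMA4, -0.13). At 48 h it called 0, where 0.0828% of all genes were called. An unadjusted limma p under 0.05 was found for 5: PSMA3 (-0.13), PSMA4 (-0.14), PSMA5 (-0.13), PSMA6 (-0.14) and PSMB7 (-0.11). How many of all genes lay under that unadjusted limit was not counted, at 12 or 48 h. The interaction at 48 h was below 0 for 26 of the 33, with a median of -0.068 beside -0.011 over all genes. With median-of-ratios scaling these medians were -0.061 and -0.0042. Without KO replicate 2 at 0 h the members' median was -0.037. The share of all genes below 0 was not counted. This interaction uses the same untreated libraries in which 26 members were above 0 in KO against WT. The smallest adjusted p of a member was 0.773 at 12 h and 0.714 at 48 h, so a difference between genotypes in the members' response was not shown.

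Other genes of the proteasome system were taken from a list of 18 activators, assembly factors and cap partners. At 12 h in WT 8 of them rose and 2 fell, where 15.1% of all genes tested rose and 29.8% fell. KO had 8 rises and 3 falls, where 16% of all genes rose and 32.8% fell. In either direction 44.9% of all genes were called in WT and 48.8% in KO. Limma called an interaction between genotype and interferon for 0 of the 18 at 12 h and 0 at 48 h. The largest rises were those of PSME2 (1.20 in WT and 0.99 in KO) and PSME1 (0.55 and 0.46), which form an interferon-inducible activator cap. Both were still higher at 48 h, PSME2 by 1.09 and 0.83 and PSME1 by 0.79 and 0.65. PSME3, a nuclear activator, rose by 0.34 and 0.36 at 12 h.

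POMP, which matures the core, rose by 0.23 in WT and 0.16 in KO at 12 h. The deubiquitinase USP14 rose by 0.28 and 0.24, and TXNL1, a thioredoxin that binds the cap, by 0.27 and 0.26. ADRM1, a ubiquitin receptor, rose by 0.29 and 0.37; its WT call was lost without any 1 WT library at 0 h or WT replicate 1 at 12 h (0.22 to 0.29, adjusted p 0.0532 to 0.112). ECPAS, an adaptor and scaffold of the proteasome, rose in WT (0.17). PAAF1, a chaperone of the cap base like PSMD10, fell by 0.34 in WT and by 0.51 in KO. SEM1, a small lid subunit, was called lower in both (-0.17 and -0.20) and in neither with median-of-ratios scaling (-0.070 and -0.090). PSMG4, a chaperone of core assembly, fell by 0.48 in KO; in WT its change was -0.17 and passed only without WT replicate 1 at 12 h or KO replicate 1 at 48 h (-0.23 and -0.17).

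At 48 h against untreated, 5 of the 18 were higher in WT and 2 in KO, and 0 were lower. Over all genes tested, 6.52% were higher and 6.3% lower in WT, and 5.9% and 7.42% in KO. PSMG4 (0.33) joined PSME1 and PSME2 in WT, as did POMP (0.14) and PSMG1 (0.16), calls that 10 and 18 of the 25 alternatives ended. Between genotypes ECPAS (0.20, adjusted p 0.00819) and USP14 (0.17, adjusted p 0.0193) were higher in untreated KO. The USP14 call was lost without KO replicate 2 or WT replicate 2 or 3 at 0 h (0.15 to 0.17, adjusted p 0.0624 to 0.0991). From 12 to 48 h in WT 3 of the 18 rose and 5 fell, where 24.6% of all genes rose and 11.3% fell. KO had 5 rises and 7 falls, where 27.7% of all genes rose and 14% fell. With median-of-ratios scaling WT had 3 rises and 7 falls and KO 2 and 8, PSME1, PSMG2 and PSME3IP1 losing their rises in KO. With it 16.1% of all genes rose and 18.2% fell in WT, and 19.1% and 21.1% in KO. PAAF1 and PSMG4 were among the genes of the list that rose in both genotypes, by 0.37 and 0.51 in WT.

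A list of 5 regulators of proteasome gene expression was followed beside the members. At 12 h 2 rose and 1 fell in WT, where 15.1% of all genes tested rose and 29.8% fell. KO had 1 rise and 2 falls, where 16% of all genes rose and 32.8% fell. NFE2L1, the transcription factor that raises proteasome genes when proteasome activity is short, rose at 12 h in WT (0.37, adjusted p 0.000718); in KO its change was 0.18 and did not pass (adjusted p 0.0505). With median-of-ratios scaling it was called in KO too (0.29, adjusted p 0.00558). The interaction between genotype and interferon at 12 h was called by limma for 0 of the 5 regulators. VCP, which helps release NFE2L1 from the endoplasmic reticulum, rose in both (0.24 and 0.15). Its KO call was lost without KO replicate 1 or 3 at 0 h or KO replicate 2 or 3 at 12 h (0.13 to 0.15, adjusted p 0.0533 to 0.0682). NFE2L2, the factor of the antioxidant response, was lower in both (-0.29 and -0.29). DDI2, the protease that cleaves NFE2L1, was called lower in KO (-0.13), a call lost with median-of-ratios scaling (-0.031) and without KO replicate 1 or 2 at 0 h or at 12 h (-0.11 to -0.13, adjusted p 0.0615 to 0.117). NGLY1, which removes sugars from NFE2L1, was not called in either (0.16 and 0.041). At 48 h 0 of the 5 were called against untreated cells by limma in either genotype, and 0 had an unadjusted p under 0.05. Of all genes, 12.8% were called in WT and 13.3% in KO.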

How the data were processed

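The authors deposited 1 table of RPKM values with 16472 Ensembl gene rows and 18 library columns; per the labels' protocols RNA came from RNeasy kits and TruSeq Stranded mRNA libraries. The submitters' processing notes name cutadapt, STAR 2.6.1, RSEM 1.3.0, limma 3.50.3 and the build hg19, with no roles. Which reads made up the total is not given in the sources used here.

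Row IDs were paired with symbols (15666 of 16472). No count model was used on RPKM values, and depth was estimated only in relative terms. Low values of 53 genes, chosen for varying little between libraries, gave the depth ratios, with 76.8% of the values within 5% of the fit. Genes with at least 1 RPKM in at least 3 libraries (13280) were tested on log2(RPKM + 1) with limma 3.58.1 under R 4.3.3, in a cell-means model over all 18 libraries with trended variances, in 11 two-sided comparisons. The scale understates changes of low genes. The p-values measure the spread between these replicates, whose separate origin the labels do not detail. The code was tested on simulated data.

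Members and lists were chosen with earlier results of these data known. Some list genes are not reported here. Any member may be named; libraries are listed for PSMB5, PSMB6 and PSMB7, for the member of each role group with the largest called change at 12 h and from 12 to 48 h in WT, and for those called between genotypes. PSMA3 and PSMB1 (every library) and PSMD11 (12 h libraries) were added after their values were seen. Symbols, pseudogenes and overlaps come from GENCODE 29 and promoters from RefSeq, GRCh38.p14, a later build than hg19, so member coordinates are not given. Alternatives were a pseudocount of 0.1, median-of-ratios scaling, no filter or one on the mean (5 RPKM or more), the compared libraries alone, variances without a trend, a replicate block and each library left out; for genes outside the rule they were added after the values were seen. Figures used Python 3.11.15 with matplotlib 3.10.9.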

Additional observations from a re-analysis of the deposited data

How the results depend on the processing

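No called change of a member or listed gene turned its direction. Over the 25 alternatives, 16 of the 22 member calls at 12 h in WT and 16 of the 21 in KO passed in every one, as did 15 of 17 and 16 of 22 from 12 to 48 h, 2 of 4 at 48 h in WT, 1 of 6 at 48 h in KO (PSMB1) and 0 of 2 between untreated genotypes. The number of members called moved by more than 1.5 times in few settings. Variances without a trend gave 2 at 48 h against untreated in WT, and the compared libraries alone gave 1 in KO. Median-of-ratios scaling gave 27 from 12 to 48 h in WT. Between untreated genotypes, median-of-ratios scaling, the compared libraries alone, variances without a trend and the replicate block each gave 0. With 1 library left out, the counts ranged from 2 to 6 at 48 h in each genotype, from 0 to 2 between untreated genotypes and from 0 to 1 between genotypes at 12 h. At 12 h the range was 19 to 23 for WT and 18 to 23 for KO, and for 12 to 48 h it was 16 to 19 and 16 to 23. Deviations of libraries with the same replicate number from their group means had correlations of -0.097 to 0.157 over 45 pairs, 2 of them above 0.1. For different numbers they were -0.109 to 0.145 over 90 pairs, 2 of them above 0.1. No pairing by number was seen, though a small shared effect could escape these correlations. The replicate block ended 4 member calls: PSMD10 at 12 h in WT, PSMA4 at 48 h in WT, and PSMA4 and PSMA5 between untreated genotypes. Among listed genes it ended those of PSMB8 between untreated genotypes, UBB between genotypes at 12 h, POMP and PSMG1 at 48 h in WT, and PSME3IP1 and UCHL5 from 12 to 48 h in KO. Estimated depth spanned 1.47-fold between libraries, and read totals are unknown, so counting error has no interval here.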

Other observations

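Genes of ubiquitin and of factors that carry ubiquitinated proteins to the proteasome were also followed. UBB, a polyubiquitin gene, rose by 0.25 in WT (limma adjusted p 0.00291), from 322, 319 and 332 to 381, 373 and 404 RPKM; in KO its change was 0.055 (adjusted p 0.476; 0.16 and called with median-of-ratios scaling), and at 12 h it was lower in KO than in WT (-0.24, adjusted p 0.0375). The difference at 12 h lost its call without any 1 KO library at 12 h or without WT replicate 1 or 3 at 12 h (-0.20 to -0.25, adjusted p 0.0684 to 0.162), with the replicate block (adjusted p 0.0587) and with variances without a trend (adjusted p 0.0666). An interaction between genotype and interferon at 12 h was called by limma for 0 of the 10 genes tested in this list, UBB included. RPS27A, a fusion of ubiquitin and a ribosomal protein, was lower in both genotypes at 12 h (-0.28 and -0.36) and 48 h (-0.28 and -0.34). RAD23B, a shuttle factor, was not called at 12 h (0.032 and 0.076), though higher in both genotypes with median-of-ratios scaling (0.13 and 0.18).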
